A study of Mus musculus with 8 samples.

Results

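The genes described here are 38 mouse genes of the responses to amino acid deprivation and to stress of the endoplasmic reticulum (ER), the compartment where secreted proteins fold. They were chosen by name with earlier results of these data known, so the shares called below describe the list and are no independent test of it. A probe set belonged to them where the platform annotation gave it 1 of these symbols alone. Of the 38 genes 37 had such a probe set, among 18193 genes with a probe set on the array. Pycr1, an enzyme of proline synthesis, had none and enters only the promoter counts below. The 37 genes fall into an ATF4 branch of 24 and a chaperone and unfolded protein branch of 13, lie on 16 chromosomes and are read by 86 of the 45101 probe sets, 79 of which were tested. Where several probe sets read 1 gene, the brightest tested one (by mean log2 signal) stood for it. All 37 of these exceeded the signal cutoff of 291.1 on all 8 arrays.

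RNA came from fibroblasts of mouse embryos (MEFs), which in every group had been immortalized with large T antigen, a viral oncoprotein, and were cultured at 21% oxygen in high-glucose medium with serum. There were 4 groups of 2 Affymetrix Mouse Genome 430 2.0 arrays each, of VHL/FIH null cells, of VHL null cells, of FIH null cells and of wild type cells. FIH is the product of Hif1an, which hydroxylates an asparagine of the hypoxia-inducible factors (HIF) and so restrains their activity in transcription. VHL is the ubiquitin ligase subunit that marks HIF alpha subunits for destruction. Null cells were obtained by adding Cre recombinase with an adenovirus to lines with floxed FIH alleles, floxed VHL alleles or both. Each null group thus came from its own line, so that genotype and line cannot be told apart. The labels do not say whether wild type cells received virus, nor whether the lines were clones or pools. They call the 2 arrays of a group biological replicates without naming separate cultures or embryos. A p-value here covers the spread between arrays of the same group, pooled over the 4 groups and moderated across genes, and no more. That spread may be technical.

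Scarcity of an amino acid is sensed by the kinase GCN2 (Eif2ak4) and misfolded protein in the ER by the kinase PERK (Eif2ak3). Both phosphorylate the translation factor eIF2alpha, which lowers protein synthesis as a whole while the mRNA of the transcription factor ATF4 is translated more. ATF4, often paired with a C/EBP protein, then drives genes for amino acid synthesis, amino acid uptake and the regulators CHOP, ATF3 and TRIB3. The ER has a pair of further sensors, IRE1 (Ern1) and ATF6, which together with the factor XBP1 raise chaperones, foldases and the machinery that removes misfolded proteins. Much of this control acts on translation, phosphorylation and splicing, which array signals do not read.

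The DNA element of each branch was looked for in the promoter windows of RefSeq (mouse build GRCm38.p6), which run from 250 bases before to 50 bases after a gene's start. A window was held for 33 of the 38 genes and for 27025 genes in all. The C/EBP-ATF response element, searched as TGATGNAA on both strands, was present in 6 of 22 ATF4 branch windows (27.3%), in 1 of 11 chaperone branch windows (9.09%) and in 4.51% of all windows. ER stress response element I, searched as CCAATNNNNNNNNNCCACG on both strands, was present in 4 of 11 chaperone branch windows (36.4%), in 0 of 22 ATF4 branch windows and in 0.137% of all windows. Element II, whose letters are the second block of capitals in the Herpud1 stretch below, was searched on both strands and was present in 1 chaperone branch window, that of Herpud1, and in 0.0444% of all. The core TGACGTGG of the unfolded protein response element was in none of the 33 windows and in 0.714% of all. The hypoxia response core ACGTG was present in 8 of 22 ATF4 branch and 5 of 11 chaperone branch windows against 21.8% of all. Its variant GCGTG was present in 17 of 22 and 8 of 11 windows against 35.2% of all. In Herpud1 a match of ACGTG on the minus strand overlaps element II. In Calr and Hsp90b1 every match of GCGTG overlaps element I. Pycr1, which has no signal here, is counted among the ATF4 branch windows with a match of TGATGNAA and one of GCGTG. A match is a description of letters and not a measured binding site.

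The stretches below show these elements beside genes whose signals are given further on. They are printed 5′ to 3′ on the strand of the gene, and the capitals mark the fixed letters of the element on either strand. The first 4 hold the C/EBP-ATF response element, in Atf3 (chr1:191183410-191183469, minus strand), Chac1 (chr2:119351023-119351082, plus strand), Nupr1 (chr7:126625547-126625606, minus strand) and Asns (chr6:7693210-7693269, minus strand):
Atf3: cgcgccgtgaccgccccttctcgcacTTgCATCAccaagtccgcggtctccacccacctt
Chac1: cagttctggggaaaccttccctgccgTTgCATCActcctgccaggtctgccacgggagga
Nupr1: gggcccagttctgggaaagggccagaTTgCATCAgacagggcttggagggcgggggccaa
Asns: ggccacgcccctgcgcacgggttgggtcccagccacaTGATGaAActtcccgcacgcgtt
Herpud1 (chr8:94386307-94386397, plus strand) holds the C/EBP-ATF response element and ER stress response element II within 1 window:
Herpud1: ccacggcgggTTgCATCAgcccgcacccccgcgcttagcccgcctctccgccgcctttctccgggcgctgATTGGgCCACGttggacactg
The last 4 hold ER stress response element I, in Hspa5 (chr2:34772004-34772063, plus strand), Hsp90b1 (chr10:86705523-86705666, minus strand, with 2 copies), Calr (chr8:84847055-84847114, minus strand) and Dnajc3 (chr14:118937806-118937865, plus strand):
Hspa5: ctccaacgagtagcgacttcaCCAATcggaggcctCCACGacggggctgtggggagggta
Hsp90b1: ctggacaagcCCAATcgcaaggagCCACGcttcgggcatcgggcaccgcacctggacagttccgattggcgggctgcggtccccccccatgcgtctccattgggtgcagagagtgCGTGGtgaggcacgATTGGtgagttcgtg
Calr: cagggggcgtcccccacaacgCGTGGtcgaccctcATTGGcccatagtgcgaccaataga
Dnajc3: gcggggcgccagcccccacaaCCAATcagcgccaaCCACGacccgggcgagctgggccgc

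The deleted genes were checked first. Hif1an signal was 1286 ± 166 in VHL/FIH null, 2033 ± 170 in VHL null and 1691 ± 21.7 in FIH null cells, against 2867 ± 206 in wild type (SD, n = 2 each), so it was lower in VHL null cells too. Vhl signal was 979 ± 116 in VHL/FIH null, 731 ± 33.2 in VHL null and 3480 ± 76.5 in FIH null cells, against 3294 ± 36.0 in wild type. The labels do not say which exons were deleted or where these probes lie. Of 10 fibroblast markers 7 were above the cutoff on all 8 arrays, while Pdgfra was below it on average in VHL/FIH null cells alone, Dcn in VHL/FIH null and FIH null cells and Thy1 in VHL/FIH null, FIH null and wild type cells. The summed signal of the 5 epithelial markers was 1029 to 1384 in VHL/FIH null arrays, 1066 to 1423 in VHL null arrays and 2495 to 2555 in FIH null arrays, against 2284 to 2668 in wild type. Of these, Cdh1 and Krt14 were below the cutoff on every array, Krt8 above it on 1 array, Epcam on 7 and Krt18 on all 8. Macrophage markers summed to 1605 to 1992 in VHL/FIH null, 1615 to 1719 in VHL null and 1671 to 1677 in FIH null arrays, against 1367 to 1798 in wild type, with Ptprc, Adgre1 and Lyz2 below the cutoff on every array and Csf1r and Cd68 above it. Of 4 endothelial markers Pecam1 and Cdh5 were below it on every array, Kdr above it on 4 and Tek on 1, with summed signals of 448 to 803 in VHL/FIH null, 472 to 578 in VHL null and 446 to 584 in FIH null arrays, against 456 to 599 in wild type. Of 3 muscle markers Myod1 and Myog were below it on every array and Des above it on 3, with sums of 253 to 734, 412 to 437 and 429 to 532 in the same order, against 320 to 469 in wild type. All arrays were scaled to a trimmed mean of 2500.01, so that each value is relative to its array. Spiked hybridization controls exceeded wild type on the log2 scale by 0.46 on VHL/FIH null arrays, 0.36 on VHL null arrays and 0.26 on FIH null arrays. The control for 18S ribosomal RNA averaged 1018 ± 5.63 in VHL/FIH null arrays, 1209 ± 108 in VHL null arrays and 518 ± 72.9 in FIH null arrays, against 524 ± 9.57 in wild type. The part of these markers and controls in the results below was not tested.

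Differences are given as log2 of the first group over the second, with the standard error of the limma fit across 11564 genes, and a gene was called higher or lower at a Benjamini-Hochberg adjusted p under 0.05. The 3 comparisons with wild type share its arrays. In FIH null against wild type cells 4 of 37 genes passed (10.8%), 2 higher and 2 lower, where 6.55% of all tested genes passed, 1.96% higher and 4.59% lower. Without FIH null replicate 1 the count was 0, and without replicate 2 it was 2. Leaving out wild type replicate 1 or 2 left 1 in each case. In VHL null against wild type cells 8 were higher and 11 lower, 51.4% of the 37 against 43.8% of all genes, of which 15.5% were higher and 28.4% lower. In VHL/FIH null against wild type cells 10 were higher and 15 lower, 67.6% against 41.4%, and without wild type replicate 2 the count of 25 was 16. In VHL/FIH null against VHL null cells 8 were higher and 10 lower, 48.6% against 37.7% (22.3% higher and 15.4% lower). That count of 18 was 10 without VHL null replicate 1, 9 without VHL null replicate 2 and 11 without VHL/FIH null replicate 1. In VHL/FIH null against FIH null cells 6 were higher and 15 lower, 56.8% against 45.5% (20.6% higher and 25% lower). In bulk RNA a change in the RNA of each cell and a change in the share of cells of a kind cannot be told apart.

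By the order of the arrays alone, VHL/FIH null and wild type arrays did not overlap for 28 of 37 genes, against 70.1% of all genes. The count was 24 for VHL null and 20 for FIH null against wild type, where 74% and 55.5% of all genes had no overlap. It was 26 for VHL/FIH null against VHL null and 28 against FIH null cells, where 67.4% and 72.8% had none. At an unadjusted p under 0.05 the count was 26 of 37 for VHL/FIH null, 20 for VHL null and 9 for FIH null against wild type, where 49.7%, 51.9% and 21% of all genes passed. It was 21 for VHL/FIH null against VHL null and 26 against FIH null cells, where 46.9% and 52.4% passed. By the probe set that stood for each gene, called differences of at least 2-fold were found for 1 gene in VHL/FIH null against wild type and for 1 against FIH null cells, where 6.96% and 7.79% of all genes reached this. VHL null against wild type, FIH null against wild type and VHL/FIH null against VHL null cells had 0 by limma, where 5.42%, 1.83% and 5.99% of all genes did. Of the 37 genes 31 were called between some pair of groups, 7 of them in both directions, and 6 in no comparison. The same counts were not made for all genes, of which 6.55% to 45.5% were called in a single pair of groups.

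On the deposited scale most called genes of the ATF4 branch were lower and most of the chaperone branch higher when VHL/FIH null cells were set against wild type. In the ATF4 branch 4 of 24 were higher and 14 lower, with a median difference of -0.25, and in the chaperone branch 6 of 13 were higher and 1 lower, with a median of 0.21. The median of all genes was -0.05, and 17.8% of all genes were higher and 23.6% lower. The 6 higher chaperone branch genes were 3 without VHL/FIH null replicate 1 or wild type replicate 2 and 4 without wild type replicate 1, and the lower count of the ATF4 branch was 10 to 14 with an array left out. The 4 higher ATF4 branch genes were 2 without VHL/FIH null replicate 1 or either wild type array. In VHL/FIH null against FIH null cells 20.6% of all genes were higher and 25% lower, with a median of -0.04. The ATF4 branch there had 3 higher and 14 lower (median -0.38) and the chaperone branch 3 higher and 1 lower (median 0.13). In VHL/FIH null against VHL null cells 22.3% of all genes were higher and 15.4% lower, with a median of 0.05. An unadjusted p under 0.05 was found for 46.9% of them. The ATF4 branch there had 4 higher and 10 lower (median -0.15). The chaperone branch had 4 higher and 0 lower (median 0.13), with 5 of 13 at an unadjusted p under 0.05. The 10 were 5 without either VHL null array, and the 4 higher ATF4 branch genes were 2 without VHL null replicate 1 and 1 without VHL null replicate 2 or VHL/FIH null replicate 1. In VHL null against wild type cells 15.5% of all genes were higher and 28.4% lower, with a median of -0.10. The ATF4 branch there had 3 higher and 9 lower (37.5% lower, median -0.09). The chaperone branch had 5 higher and 2 lower (median -0.00). Those 5 were 1 without either wild type array and 2 without either VHL null array, and the 2 lower ones were 1 without wild type replicate 2 or VHL null replicate 2. In FIH null against wild type cells 1.96% of all genes were higher and 4.59% lower, with a median of -0.00. An unadjusted p under 0.05 was found for 21% of them. The ATF4 branch there had 2 higher and 2 lower (median 0.04). In the chaperone branch none passed by limma and 1 of 13 had an unadjusted p under 0.05, although the other 2 probe sets of Hyou1 passed. No difference between the branches was tested. The directions depend on the scale: with arrays scaled to the hybridization controls, the count against wild type was 0 higher and 14 lower in FIH null, 1 higher and 27 lower in VHL null and 1 higher and 30 lower in VHL/FIH null cells. Of all 11564 genes 67, 440 and 555 were then higher and 4925, 7725 and 8180 lower in the same order. On that scale the medians of all genes were -0.27, -0.46 and -0.51, and in VHL/FIH null cells the ATF4 branch had a median of -0.71 and the chaperone branch -0.25. With arrays centred on their medians FIH null cells had 10 members higher and 1 lower, where 1015 of 11564 genes were higher and 411 lower.

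**Figure D1:**
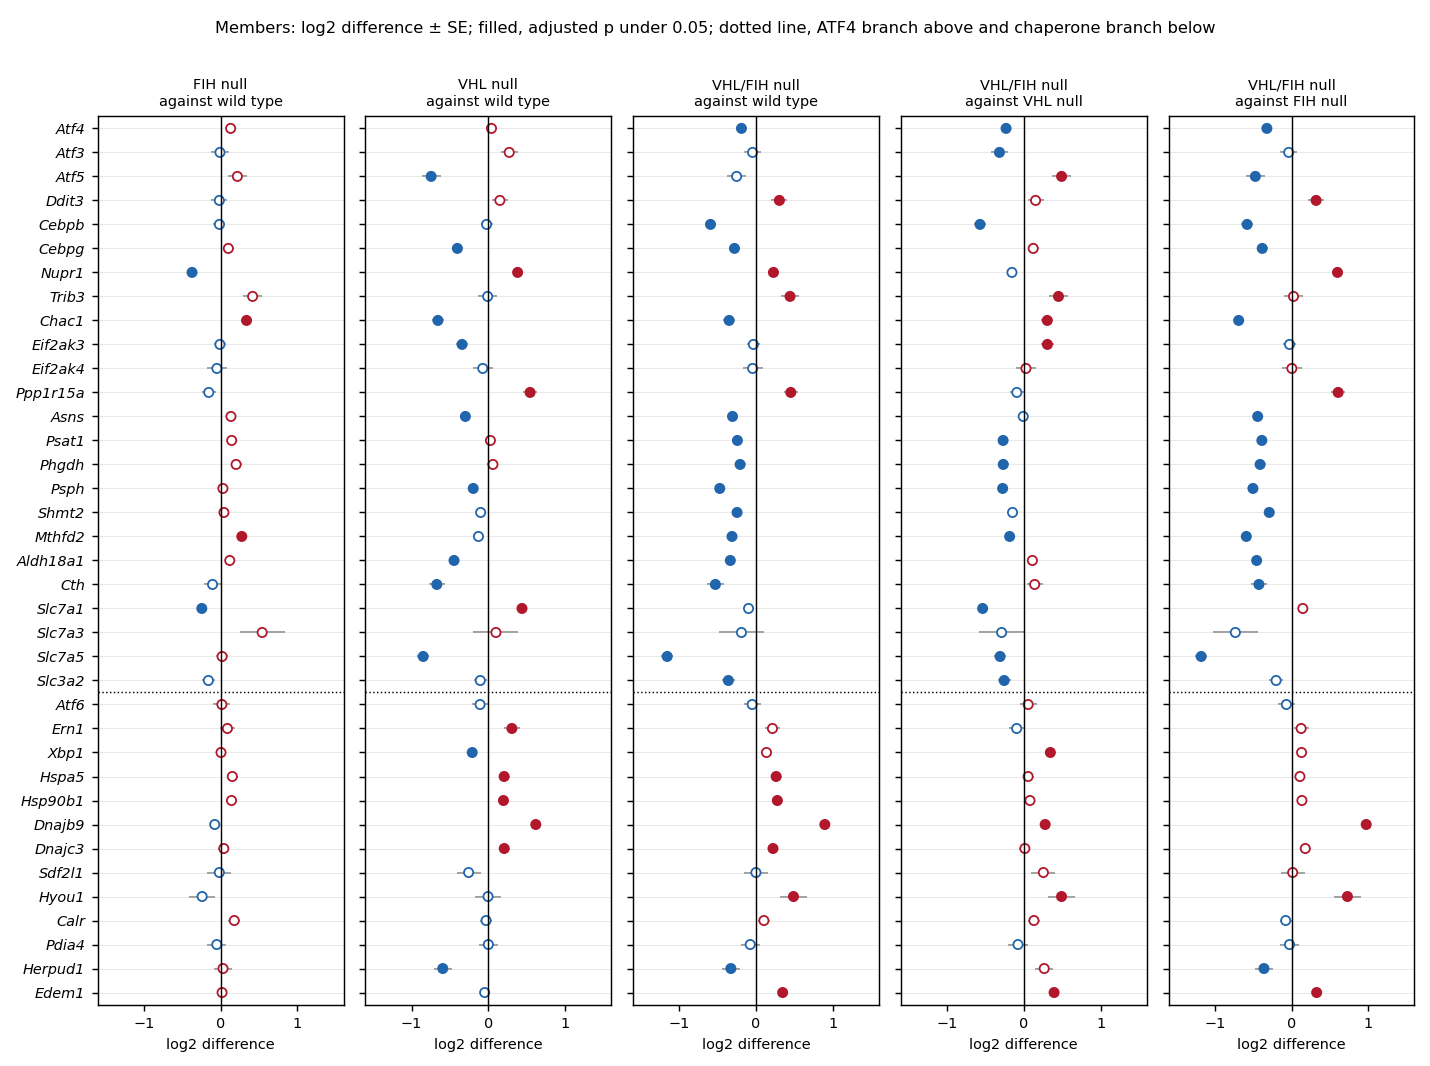
Each panel plots 1 comparison between 2 genotypes, with the log2 difference of group means on the horizontal axis and the 37 genes down the page, the ATF4 branch above the dotted line and the chaperone branch below it. Points are differences with their standard error, red to the right of 0 and blue to the left, filled where the adjusted p was under 0.05. The widest difference of a called gene is that of Slc7a5, at -1.16 against wild type and -1.18 against FIH null cells.

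Among the enzymes, genes of amino acid synthesis and one-carbon metabolism were lower in VHL/FIH null cells. All 8 tested passed as lower against wild type by limma, with differences from -0.53 to -0.21 and a median of -0.31. All 8 also passed as lower against FIH null cells, from -0.59 to -0.29 with a median of -0.43. Arrays of the groups did not overlap for any of the 8 in either comparison, which held for 70.1% of all genes against wild type and 72.8% against FIH null. Of all tested genes 25% were lower against FIH null cells. Both counts came to 6 of the 6 genes still tested without probe sets ending in _x_at, _s_at or _a_at. Against wild type Phgdh and Shmt2 lost their calls without wild type replicate 2, and Psat1 without wild type replicate 1. Scaling to the hybridization controls left all 8 lower in both comparisons, but it lowers every gene and so could not put these calls at risk. On that scale 8180 of 11564 genes were lower against wild type and 4904 against FIH null cells. The enzyme medians were -0.77 and -0.63, where those of all genes were -0.51 and -0.24.

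Psph, the phosphatase that completes serine synthesis, had 12249 and 13239 in VHL/FIH null arrays, 14823 and 16036 in VHL null arrays and 17608 and 18489 in FIH null arrays, against 17653 and 17709 in wild type. Its VHL/FIH null arrays were the lowest of the 8 and did not overlap any other group. The difference from wild type was -0.47 ± 0.06 (adjusted p = 0.000146).

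Phgdh and Psat1, the preceding enzymes of the serine pathway, were also lowest in VHL/FIH null arrays. Phgdh read 37767 and 39653 there, 44112 and 49208 in VHL null arrays and 52375 and 50414 in FIH null arrays, against 42206 and 47364 in wild type. VHL/FIH null cells differed from FIH null cells by -0.41 ± 0.07 (adjusted p = 0.0008) and from wild type by -0.21 ± 0.07 (adjusted p = 0.0377). The second call was lost in 10 of 21 other settings, among them without wild type replicate 2, VHL/FIH null replicate 1 or either FIH null array, though the other 3 tested Phgdh probe sets were lower too, with differences of -0.66, -0.65 and -0.26. Psat1 read 43009 and 43570.4 in VHL/FIH null arrays, 53519 and 50887 in VHL null arrays and 58440.1 and 54795 in FIH null arrays, against 52624 and 49898 in wild type. The gap between VHL/FIH null and VHL null cells was -0.27 ± 0.06 (adjusted p = 0.0039).

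Mthfd2, the mitochondrial one-carbon enzyme, was the enzyme gene that rose in FIH null cells. It read 11678 and 12296 in VHL/FIH null arrays, 13794 and 13449.6 in VHL null arrays and 18011 and 18039.8 in FIH null arrays, against 14132 and 15703 in wild type. The FIH null arrays stood above all others and the VHL/FIH null arrays below all others. The differences were 0.27 ± 0.06 for FIH null against wild type (adjusted p = 0.0264) and -0.59 ± 0.06 for VHL/FIH null against FIH null cells (adjusted p = 2.52e-05). The first lost its call without FIH null replicate 1 or 2, without wild type replicate 1, with the mean of its 2 probe sets, with no variance trend and with scaling to the hybridization controls. Another 4 of the 8 enzymes had differences of 0.12 to 0.20 in FIH null cells, none past the threshold.

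Shmt2, which moves a carbon unit from serine in mitochondria, averaged 25724 ± 387 in VHL/FIH null, 28481 ± 532 in VHL null and 31458 ± 916 in FIH null cells, against 30567 ± 1841 in wild type (SD, n = 2). It was lower in VHL/FIH null cells, with a difference of -0.25 ± 0.06 from wild type (adjusted p = 0.0057) that was lost without wild type replicate 2 and was 0.38 with the mean of its probe sets. A second tested probe set gave -0.37, while the remaining 2 gave 2.00 and 0.15 without passing, and for the first of these 1 wild type array read 122.9 against 1910 on the other.

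A second set of enzymes was lower in VHL null cells as well. Cth, which makes cysteine from cystathionine, read 2188 and 2579 in VHL/FIH null, 2329 and 1988 in VHL null and 3213 and 3172 in FIH null arrays, against 3344 and 3533 in wild type. Arrays lacking VHL lay below all arrays with VHL. Its differences from wild type were -0.67 ± 0.11 in VHL null (adjusted p = 0.000499) and -0.53 ± 0.11 in VHL/FIH null cells (adjusted p = 0.00215). Asns, asparagine synthetase, whose promoter element is printed above, averaged 19644 ± 706 in VHL/FIH null, 19739.8 ± 278 in VHL null and 26662 ± 824 in FIH null cells, against 24295 ± 218 in wild type. It was lower than in wild type both in VHL/FIH null (-0.31 ± 0.05, adjusted p = 0.00101) and VHL null cells (-0.30 ± 0.05, adjusted p = 0.00123). VHL/FIH null and VHL null cells differed by -0.01 with a 95% interval of -0.13 to 0.11. Aldh18a1, the first enzyme of proline synthesis, averaged 15965 ± 324 in VHL/FIH null, 14776 ± 509 in VHL null and 21873 ± 515 in FIH null cells, against 20148 ± 201 in wild type. In VHL null against wild type cells 4 of 8 enzymes were lower, where 28.4% of all genes were: Cth, Aldh18a1 (-0.45), Asns and Psph (-0.20). The call of Psph was lost without either wild type array or VHL null replicate 1. In VHL/FIH null against VHL null cells 4 of 8 enzymes were lower, where 15.4% of all genes were. These were Psph (-0.28), which was also among the 4 just named, Psat1, Phgdh (-0.27) and Mthfd2 (-0.18). Mthfd2 lost its call in 12 of 22 other settings. Phgdh lost it without VHL null replicate 2 or VHL/FIH null replicate 1, and Psph without VHL null replicate 2. In the fit of all tested probe sets some further ones were lower in VHL null than wild type cells, 1 of Mthfd2 (-0.41, adjusted p = 0.0011), 1 of Shmt2 (-0.25, adjusted p = 0.00795) and 2 of Phgdh (-0.27 and -0.28, adjusted p = 0.00394 and 0.0111).

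**Figure D2:**
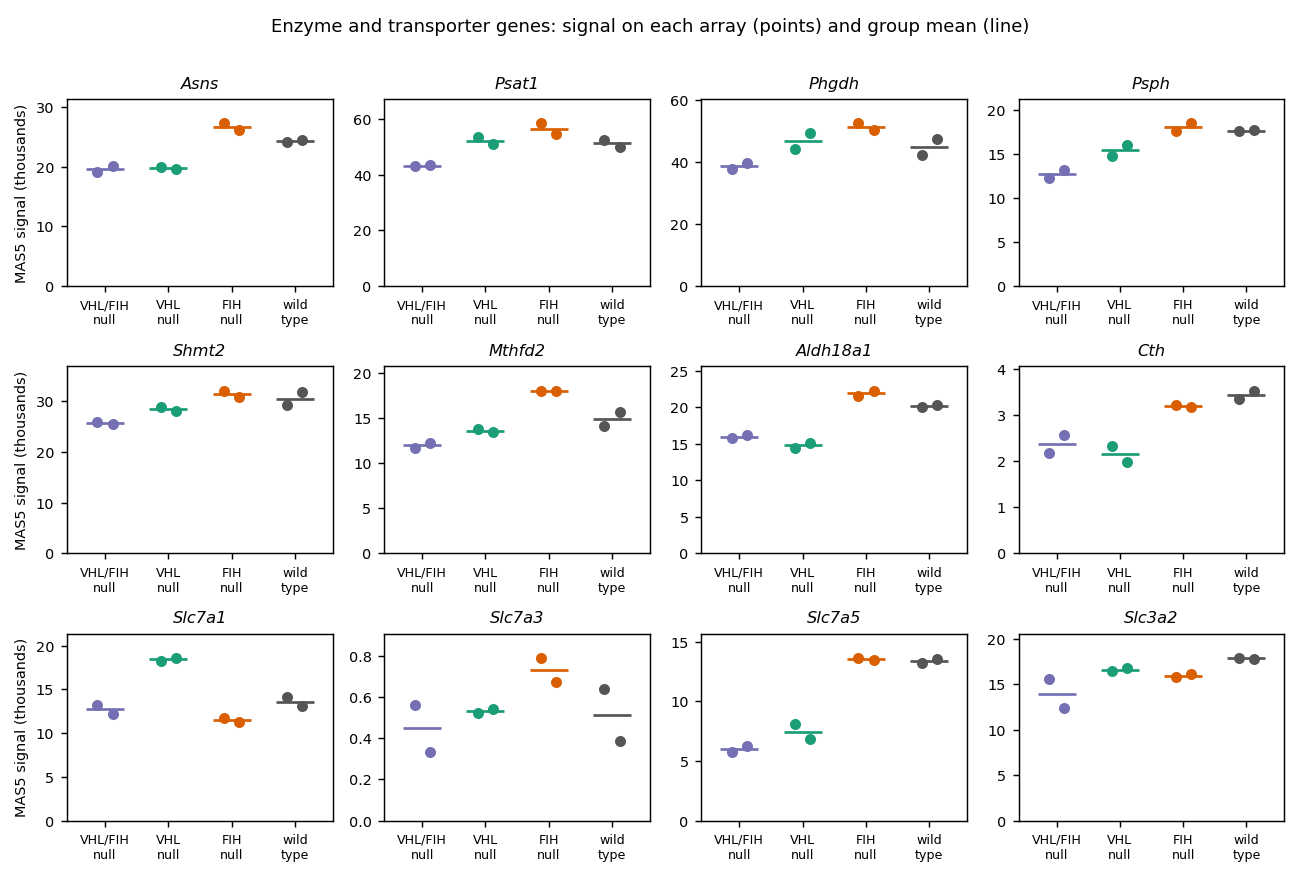
Points give the MAS5 signal on each of the 2 arrays of a group and lines the group mean, for 8 enzyme genes and 4 transporter genes, with the vertical axis starting at 0. For Slc7a5 the VHL/FIH null arrays lie at 5764 and 6235 and the wild type arrays at 13222 and 13561, and for all 8 enzymes the VHL/FIH null arrays lie below both FIH null and wild type arrays.

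Of 4 transporters 2 were lower in VHL/FIH null cells against wild type, 1 was higher and 1 lower in VHL null cells, and 1 was lower in FIH null cells. The lower shares are 50%, 25% and 25%, where 23.6%, 28.4% and 4.59% of all genes were lower. Slc7a5, the light chain of the large neutral amino acid transporter LAT1, fell furthest. It read 5764 and 6235 in VHL/FIH null arrays, 8059.5 and 6846 in VHL null arrays and 13633 and 13498 in FIH null arrays, against 13222 and 13561 in wild type. Each array lacking VHL lay below each array that had it, and the FIH null and wild type arrays overlapped. The difference from wild type was -1.16 ± 0.08 in VHL/FIH null cells (2.23-fold lower, adjusted p = 7.85e-07) and -0.85 ± 0.08 in VHL null cells (1.80-fold lower, adjusted p = 1.35e-05). VHL/FIH null cells lay -0.31 ± 0.08 from VHL null cells (adjusted p = 0.00978), a call lost without VHL null replicate 1 or VHL/FIH null replicate 1. By the brightest probe set of each gene it was the 1 member to change by at least 2-fold, which it did against wild type and against FIH null cells, and its calls in VHL null against wild type and in these 2 comparisons held in all 22 other settings. The interaction, -0.33 ± 0.11, did not pass (adjusted p = 0.0572).

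Slc3a2, the heavy chain that pairs with Slc7a5 at the membrane, read 15535 and 12389.8 in VHL/FIH null, 16396 and 16730.2 in VHL null and 15798 and 16092 in FIH null arrays, against 17870.4 and 17773 in wild type. Its VHL/FIH null arrays were the lowest and its wild type arrays the highest. VHL/FIH null cells were lower than wild type (-0.36 ± 0.09, adjusted p = 0.00634), while VHL null cells did not pass (-0.11, adjusted p = 0.349).

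Slc7a1, a carrier of arginine and lysine, ran the other way in VHL null cells. It read 13183 and 12222 in VHL/FIH null arrays, 18242 and 18581 in VHL null arrays and 11710.0 and 11213 in FIH null arrays, against 14086 and 13112 in wild type. The VHL null arrays stood above all others. The differences were 0.44 ± 0.06 for VHL null against wild type (adjusted p = 0.000262), which was 0.076 and did not pass with scaling to the hybridization controls, and -0.54 ± 0.06 for VHL/FIH null against VHL null cells (adjusted p = 7.25e-05). FIH null cells were lower than wild type (-0.25 ± 0.06, adjusted p = 0.0408), a call lost in 11 of 22 other settings, among them each of the 4 that leave out an array of these groups. VHL/FIH null against wild type cells did not pass (-0.10), while another probe set gave -0.37 and passed (adjusted p = 0.00374). Slc7a3, a related carrier, read 332 to 789 over the 8 arrays and was called in no comparison.

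Of 9 regulators and effectors 3 were higher and 4 lower in VHL/FIH null, 1 higher and 3 lower in VHL null and 1 higher and 1 lower in FIH null against wild type cells. In VHL/FIH null cells that is 33.3% higher and 44.4% lower, where 17.8% and 23.6% of all genes were. In VHL null cells it is 11.1% and 33.3%, where 15.5% and 28.4% were. Atf4 itself, read by its brighter probe set, was lowest in VHL/FIH null cells. Its signal was 30214 and 28090.1 in VHL/FIH null arrays, 36102 and 32386 in VHL null arrays and 37212 and 35576 in FIH null arrays, against 32851 and 33659 in wild type. Its VHL/FIH null arrays did not overlap those of any other group, with differences of -0.32 ± 0.07 from FIH null (adjusted p = 0.00214), -0.23 ± 0.07 from VHL null (adjusted p = 0.017) and -0.19 ± 0.07 from wild type cells (adjusted p = 0.037). A second tested Atf4 probe set, marked as open to cross-hybridization, was higher in VHL/FIH null cells by 0.35 against wild type and by 0.25 against FIH null cells and passed in the fit of all tested probe sets (adjusted p = 0.0134 and 0.0499), so the direction for Atf4 rests on the probe set. With the mean of both probe sets the difference from wild type was 0.080. The call against wild type was lost in 11 further settings, among them without either wild type or FIH null array, and that against VHL null cells without VHL null replicate 1 or VHL/FIH null replicate 2.

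Ddit3, which encodes CHOP, read 5573 and 4347 in VHL/FIH null arrays, 4547 and 4304 in VHL null arrays and 3971 and 3906 in FIH null arrays, against 3880.2 and 4095 in wild type. Its VHL/FIH null arrays were above those of wild type and 1 of them overlapped VHL null. The difference from wild type was 0.30 ± 0.10 (adjusted p = 0.0365), was lost in 11 of 22 other settings, among them without any 1 array other than VHL/FIH null replicate 2, and turned to -0.16 with scaling to the hybridization controls. A second tested probe set gave -0.03. Atf3, a stress-induced repressor, averaged 1884 ± 248 in VHL/FIH null cells, 2342 ± 15.1 in VHL null cells and 1925 ± 57.2 in FIH null cells, against 1940.2 ± 144 in wild type. It was lower in VHL/FIH null than VHL null cells (-0.32 ± 0.11, adjusted p = 0.0443), a call lost in 11 of 21 other settings, among them without either VHL null array.

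Cebpb, a C/EBP factor that pairs with ATF4, was lowest where both genes were deleted. Its brighter probe set read 7154 and 6196 in VHL/FIH null arrays, 10252 and 9542 in VHL null arrays and 9655 and 10239.9 in FIH null arrays, against 10292 and 9823 in wild type. The VHL/FIH null arrays lay below the other 6, which overlapped. The difference from wild type was -0.59 ± 0.08 (adjusted p = 0.000122), against -0.02 for each single deletion, and the interaction was -0.55 ± 0.11 (adjusted p = 0.00464). These calls of the brighter probe set held in every other setting run. The second tested probe set read 2317 and 1937 in VHL/FIH null arrays, 2875 and 2978 in VHL null arrays and 3381 and 3305 in FIH null arrays, against 3862 and 3613 in wild type. In the fit of all tested probe sets it was lower in VHL/FIH null (-0.81, adjusted p = 0.000132) and in VHL null against wild type cells (-0.35, adjusted p = 0.0187), and its interaction did not pass (-0.30, adjusted p = 0.173). Cebpg, a partner of ATF4 from the same family, was lower in VHL null (-0.40 ± 0.07, adjusted p = 0.000936) and VHL/FIH null cells (-0.28 ± 0.07, adjusted p = 0.00802) against wild type, the second not without wild type replicate 2.

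Atf5, a further stress-regulated factor, read 2350.5 and 2005 in VHL/FIH null arrays, 1396 and 1696 in VHL null arrays and 2975 and 3054 in FIH null arrays, against 2807 and 2391 in wild type. The VHL null arrays were the lowest, with a difference of -0.75 ± 0.12 from wild type (adjusted p = 0.000712). VHL/FIH null cells stood above VHL null cells by 0.49 ± 0.12 (adjusted p = 0.00957) and did not pass against wild type (-0.25, adjusted p = 0.128). The call against VHL null cells was lost without VHL null replicate 1 or VHL/FIH null replicate 1.

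Chac1, a glutathione-degrading enzyme driven by ATF4 and CHOP, was the 1 member called in all 5 comparisons between pairs of groups. It read 2932 and 3032 in VHL/FIH null arrays, 2488 and 2334 in VHL null arrays and 4803 and 4825 in FIH null arrays, against 3817 and 3799 in wild type. No pair of groups overlapped. The differences from wild type were 0.34 ± 0.08 in FIH null (adjusted p = 0.023), -0.66 ± 0.08 in VHL null (adjusted p = 6.08e-05) and -0.35 ± 0.08 in VHL/FIH null cells (adjusted p = 0.00334). The gain in FIH null cells lost its call when any of the 4 arrays of that comparison was left out, while the other 2 held in all 22 settings.

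Nupr1, a small stress-induced chromatin protein with the same promoter element as Chac1, showed the opposite order. It read 8483 and 9058 in VHL/FIH null arrays, 9725 and 9792 in VHL null arrays and 5552 and 6020.0 in FIH null arrays, against 7372 and 7615 in wild type. By this brighter probe set groups did not overlap. A second tested one, marked as open to cross-hybridization, read 6274 and 6689 in VHL/FIH null arrays, against 6306 and 5919 in wild type. There VHL/FIH null arrays overlapped wild type and VHL null arrays. In the fit of all tested probe sets it gave -0.31 in FIH null cells, which passed. It gave 0.18 in VHL null and 0.08 in VHL/FIH null cells, which did not. The differences of the brighter probe set from wild type were -0.37 ± 0.07 in FIH null (adjusted p = 0.00621), 0.38 ± 0.07 in VHL null (adjusted p = 0.000907) and 0.23 ± 0.07 in VHL/FIH null cells (adjusted p = 0.0177). With scaling to the hybridization controls the last turned to -0.24, and that in VHL null cells was 0.019 and did not pass. Without FIH null replicate 1 or wild type replicate 2 the first did not pass, and without wild type replicate 1 or VHL/FIH null replicate 2 the last did not.

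Trib3, a pseudokinase that restrains ATF4, read 3058 and 2900.2 in VHL/FIH null arrays, 2214 and 2133 in VHL null arrays and 3360.5 and 2544 in FIH null arrays, against 2268 and 2110.3 in wild type. Both groups lacking FIH lay above both groups that had it. VHL/FIH null cells were higher than VHL null cells by 0.45 ± 0.12 (adjusted p = 0.0129) and than wild type by 0.44 ± 0.12 (adjusted p = 0.0128). FIH null against wild type cells gave 0.42 ± 0.12 and did not pass (adjusted p = 0.0692), whereas the second tested probe set gave 0.56 and passed in the fit of all tested probe sets (adjusted p = 0.0099). Of the first probe set, neither call in VHL/FIH null cells held without VHL/FIH null replicate 1, the first was lost without VHL null replicate 2 and the second without wild type replicate 2, and the second was -0.021 with scaling to the hybridization controls.

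**Figure D3:**
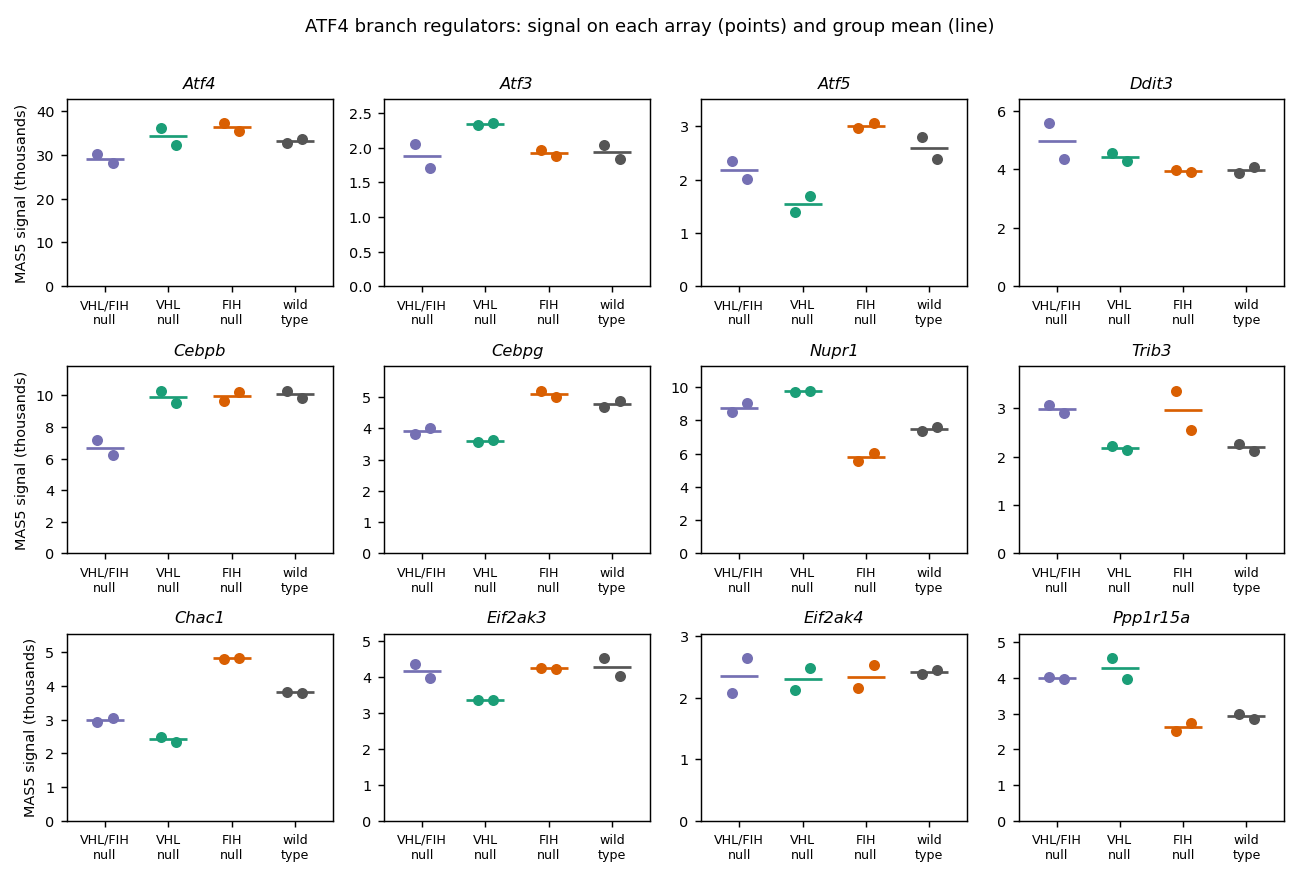
Points give the MAS5 signal on each of the 2 arrays of a group and lines the group mean, for 9 regulators and effectors, the kinases Eif2ak3 and Eif2ak4 and the phosphatase subunit Ppp1r15a, with the vertical axis starting at 0. Chac1 is highest in FIH null and lowest in VHL null cells, Nupr1 the reverse, and the brighter Cebpb probe set, the one plotted, is lowest in VHL/FIH null arrays, at 7154 and 6196.

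At the step of eIF2alpha, Ppp1r15a, the GADD34 subunit that directs dephosphorylation of eIF2alpha, was higher without VHL. It read 4019 and 3987 in VHL/FIH null arrays, 4564 and 3983 in VHL null arrays and 2504 and 2745 in FIH null arrays, against 2996 and 2850.2 in wild type. All 4 arrays lacking VHL lay above all 4 with VHL. The differences from wild type were 0.54 ± 0.09 in VHL null (adjusted p = 0.000646) and 0.45 ± 0.09 in VHL/FIH null cells (adjusted p = 0.00198), of which neither passed with scaling to the hybridization controls, where the second was -0.010. Eif2ak3 was lower in VHL null cells against wild type (-0.34 ± 0.08, adjusted p = 0.00652), at 3359 ± 18.3 in VHL null cells, against 4272 ± 362 in wild type, a call lost without wild type replicate 1. Eif2ak4 was called nowhere, with group means of 2301 to 2415.

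In the chaperone branch Dnajb9, an ER co-chaperone of the XBP1 pathway, rose furthest. It read 9394 and 9341 in VHL/FIH null arrays, 7913 and 7538 in VHL null arrays and 4607 and 4930.0 in FIH null arrays, against 4928 and 5134 in wild type. Arrays lacking VHL lay above those with VHL, the VHL/FIH null arrays highest. The differences from wild type were 0.90 ± 0.07 in VHL/FIH null (1.86-fold higher, adjusted p = 1.5e-06) and 0.62 ± 0.07 in VHL null cells (1.53-fold higher, adjusted p = 3.73e-05), and both held in all 22 other settings. VHL/FIH null cells stood 0.28 ± 0.07 above VHL null cells (adjusted p = 0.00682), a call lost without VHL null replicate 2 and with scaling to the hybridization controls.

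The abundant chaperones moved by less. Of 8 chaperone and foldase genes 5 were higher in VHL/FIH null and 4 in VHL null cells against wild type, and none lower by limma, where 17.8% and 15.5% of all genes were higher. The 5 were 2 without VHL/FIH null replicate 1 or wild type replicate 2 and 3 without wild type replicate 1. The 4 were 1 without either wild type array or VHL null replicate 2 and 2 without VHL null replicate 1. With scaling to the hybridization controls the counts were 1 higher and 6 lower in VHL/FIH null and 1 higher and 5 lower in VHL null cells. Of all 11564 genes 555 and 440 were then higher and 8180 and 7725 lower. Hspa5, which encodes the chaperone BiP, read 75669 and 67396 in VHL/FIH null arrays, 69538 and 67839 in VHL null arrays and 69437 and 63079 in FIH null arrays, against 61196 and 58020.2 in wild type. Wild type arrays were the lowest and the 3 null groups overlapped. The differences from wild type were 0.26 ± 0.07 in VHL/FIH null (adjusted p = 0.0117) and 0.20 ± 0.07 in VHL null cells (adjusted p = 0.0348), and 0.15 in FIH null cells did not pass (adjusted p = 0.247). The call in VHL/FIH null cells was lost without wild type replicate 2 or VHL/FIH null replicate 1, and that in VHL null cells without any 1 array of the 2 groups. A further tested probe set of Hspa5, marked as open to cross-hybridization, gave -0.26 in VHL/FIH null and -0.33 in VHL null cells without passing.

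Hsp90b1, the ER form of the chaperone HSP90, followed Hspa5, with differences of 0.28 ± 0.07 in VHL/FIH null (adjusted p = 0.00802) and 0.20 ± 0.07 in VHL null cells (adjusted p = 0.0394). Dnajc3, an inhibitor of eIF2alpha kinases that also acts as a co-chaperone, differed by 0.22 ± 0.07 (adjusted p = 0.0266) and 0.21 ± 0.07 (adjusted p = 0.0338) in the same order. Of these calls Hsp90b1 in VHL/FIH null cells was lost without wild type replicate 1 and held without each other array. Hsp90b1 in VHL null cells was lost without any 1 array of the 2 groups compared and without either FIH null array. Dnajc3 in VHL/FIH null cells was lost without any 1 array of the 2 groups compared. In VHL null cells Dnajc3 was lost without either wild type array or VHL null replicate 2. Both Dnajc3 calls were lost with the mean of its probe sets. Its other 4 tested probe sets gave -0.13 to 0.22 in VHL/FIH null cells, none passing. They gave -0.08 to 0.27 in VHL null cells, where 1 passed. Calr, the lectin chaperone calreticulin, has the same ER stress element as these 3 genes in its promoter window and by its brightest probe set passed in no comparison, while another gave 0.29 in VHL/FIH null against VHL null cells (adjusted p = 0.0236). Its difference from wild type was 0.10 in VHL/FIH null cells, with a 95% interval of -0.07 to 0.27. Sdf2l1 and Pdia4 were also called nowhere, with differences from wild type in VHL/FIH null cells of -0.00 (interval -0.34 to 0.34) and -0.08 (interval -0.35 to 0.20).

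Hyou1, a large ER chaperone also known as an oxygen-regulated protein, has 3 tested probe sets. The brightest read 6558 and 5905 in VHL/FIH null arrays, 3973 and 4922 in VHL null arrays and 3334 and 4219 in FIH null arrays, against 5408 and 3639 in wild type. The VHL/FIH null arrays were the highest, and the other groups overlapped. Its difference was 0.73 ± 0.17 from FIH null (adjusted p = 0.00503), 0.49 ± 0.17 from VHL null (adjusted p = 0.0427) and 0.49 ± 0.17 from wild type cells (adjusted p = 0.0409). The call against wild type was lost in 8 of 22 other settings, among them without wild type replicate 2 and without either VHL/FIH null array. That against VHL null cells was lost without either VHL/FIH null array or VHL null replicate 1, and that against FIH null cells without FIH null replicate 1. The other probe sets, at lower signals, gave wider differences in the fit of all tested probe sets. One read 2553 and 2095 in VHL/FIH null arrays, 972 and 1427 in VHL null arrays and 404 and 433 in FIH null arrays, against 1014 and 1178 in wild type, so that FIH null arrays lay below all others and VHL/FIH null arrays above. Its differences were 2.42 from FIH null (adjusted p = 4.76e-06) and 1.07 from wild type cells (adjusted p = 0.00148), and that of FIH null from wild type cells was -1.35 (adjusted p = 0.0021). The remaining probe set gave 2.15 (adjusted p = 0.000219), 0.86 (adjusted p = 0.0415) and -1.29 (adjusted p = 0.0318) for these comparisons. It read 108.5 and 185.2 in FIH null arrays, below the cutoff of 291.1, against 425.7 and 324.4 in wild type, so its differences involving FIH null cells rest on signals below the cutoff. The interaction passed for both (2.32, adjusted p = 0.000315, and 1.80, adjusted p = 0.0143) and not for the brightest (0.73, adjusted p = 0.0745 in the same fit).

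Of the sensor and factor genes Xbp1 and Ern1 were called in opposite directions in VHL null cells, and the 2 genes of ER-associated degradation in opposite directions in VHL/FIH null cells, all against wild type. Xbp1, the factor spliced by IRE1, read 17535 and 17599.7 in VHL/FIH null arrays, 14206 and 13442 in VHL null arrays and 16198 and 15883 in FIH null arrays, against 15383 and 16626 in wild type. VHL null arrays were the lowest and VHL/FIH null arrays the highest, with a difference between them of 0.35 ± 0.06 (adjusted p = 0.000982). VHL null cells were lower than wild type (-0.21 ± 0.06, adjusted p = 0.0143), with 2 other probe sets at -0.38 and -0.25 and a further one at 0.37 that did not pass. This call was lost without wild type replicate 2 or VHL null replicate 2. These signals do not tell spliced from unspliced Xbp1. Ern1, which encodes IRE1, read 2178 and 2303 in VHL/FIH null arrays, 2519.5 and 2266 in VHL null arrays and 1951 and 2158 in FIH null arrays, against 1943 and 1917 in wild type. The difference of 0.31 ± 0.10 in VHL null against wild type cells passed (adjusted p = 0.0277), and it was lost without either wild type array and without VHL null replicate 1. The other 2 tested Ern1 probe sets gave -0.29 and 0.43 and did not pass, and the call was lost with the mean of probe sets. Atf6 passed in no comparison, with group means of 2079 to 2265.

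Herpud1, a membrane protein of ER-associated degradation whose window holds both kinds of element, read 5929.6 and 5922 in VHL/FIH null arrays, 5398 and 4496 in VHL null arrays and 7338 and 7876 in FIH null arrays, against 8452 and 6556 in wild type. Arrays lacking VHL were the lowest 4. The difference from wild type was -0.59 ± 0.11 in VHL null (adjusted p = 0.00175) and -0.33 ± 0.11 in VHL/FIH null cells (adjusted p = 0.0399), the second lost in 11 of 22 other settings, among them without wild type replicate 1 or either VHL/FIH null or FIH null array. Edem1, a lectin that hands misfolded glycoproteins to degradation, read 7260.1 and 7348 in VHL/FIH null arrays, 5514 and 5594 in VHL null arrays and 5989 and 5649.5 in FIH null arrays, against 5953 and 5542 in wild type. The VHL/FIH null arrays lay above the other 6. They differed by 0.39 ± 0.07 from VHL null (adjusted p = 0.000902), 0.33 ± 0.07 from FIH null (adjusted p = 0.00212) and 0.35 ± 0.07 from wild type cells (adjusted p = 0.00173), the last turning to -0.12 with scaling to the hybridization controls. A second tested Edem1 probe set gave -0.01 against wild type, and was lower in VHL null than wild type cells (-0.26, adjusted p = 0.0167).

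**Figure D4:**
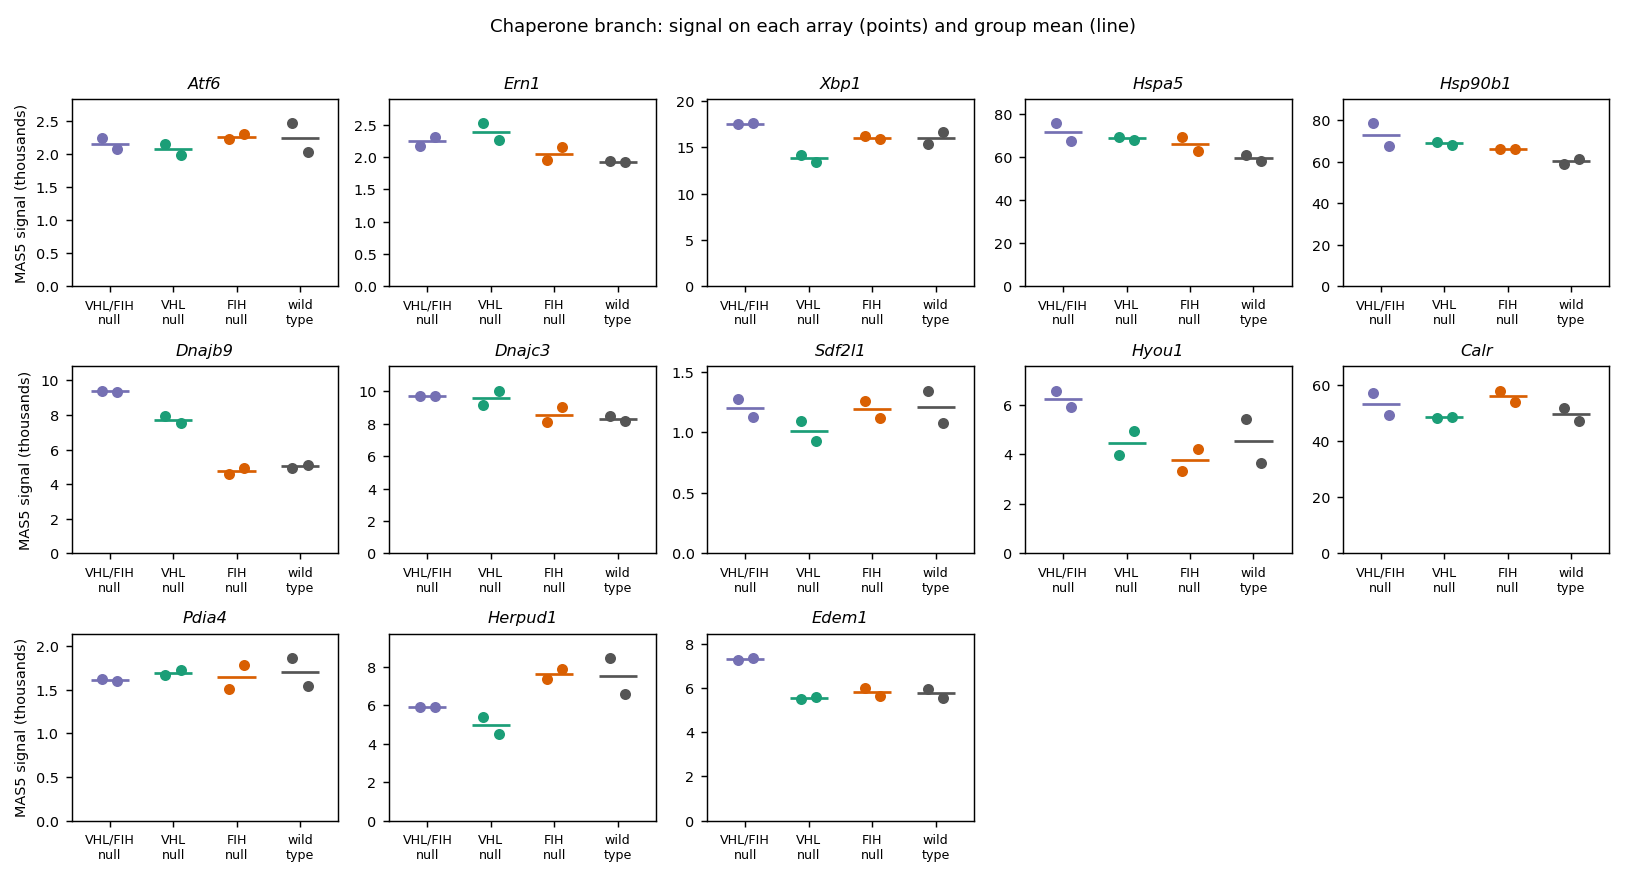
Points give the MAS5 signal on each of the 2 arrays of a group and lines the group mean, for the 13 genes of the chaperone branch, with the vertical axis starting at 0. Dnajb9 is highest in VHL/FIH null arrays (9394 and 9341) and next in VHL null arrays (7913 and 7538), Edem1 is highest in VHL/FIH null arrays by the probe set plotted, and Herpud1 is lowest where VHL is deleted.

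Whether loss of FIH acted differently with and without VHL was tested as an interaction, the difference of VHL/FIH null from VHL null minus that of FIH null from wild type cells. It passed for 10 of 37 members (27%), 3 higher and 7 lower, against 21.9% of all genes (13.4% higher and 8.47% lower), and 15 had an unadjusted p under 0.05, against 35.1% of all. None reached 2-fold by limma, which 5.5% of all genes did. The 7 lower ones were in the ATF4 branch: Cebpb, Phgdh (-0.47 ± 0.10, adjusted p = 0.00759), Mthfd2 (-0.46 ± 0.09, adjusted p = 0.00434), Psat1 (-0.41 ± 0.08, adjusted p = 0.0047), Atf4 (-0.36), Psph (-0.30) and Slc7a1 (-0.29). The 3 higher ones were in the chaperone branch: Edem1 (0.38 ± 0.09, adjusted p = 0.0159), Dnajb9 (0.36 ± 0.09, adjusted p = 0.0193) and Xbp1 (0.34 ± 0.08, adjusted p = 0.0143). For Phgdh, Psat1 and Mthfd2 the effect of FIH loss was -0.27, -0.27 and -0.18 in cells without VHL and 0.20, 0.14 and 0.27 in cells with VHL. The count was 6 without FIH null replicate 1. Edem1 lost its call without wild type replicate 1, FIH null replicate 2 or VHL null replicate 1, Dnajb9 without wild type replicate 2, FIH null replicate 1 or VHL null replicate 2, Xbp1 without replicate 2 of any of these 3 groups and Atf4 without replicate 1 of any of them. With arrays centred on their medians 0 were higher and 9 lower, and with scaling to the hybridization controls 6 were higher and 2 lower. Of all 11564 genes 1047 were higher and 1544 lower with the first, and 2597 higher and 405 lower with the second.

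**Figure D5:**
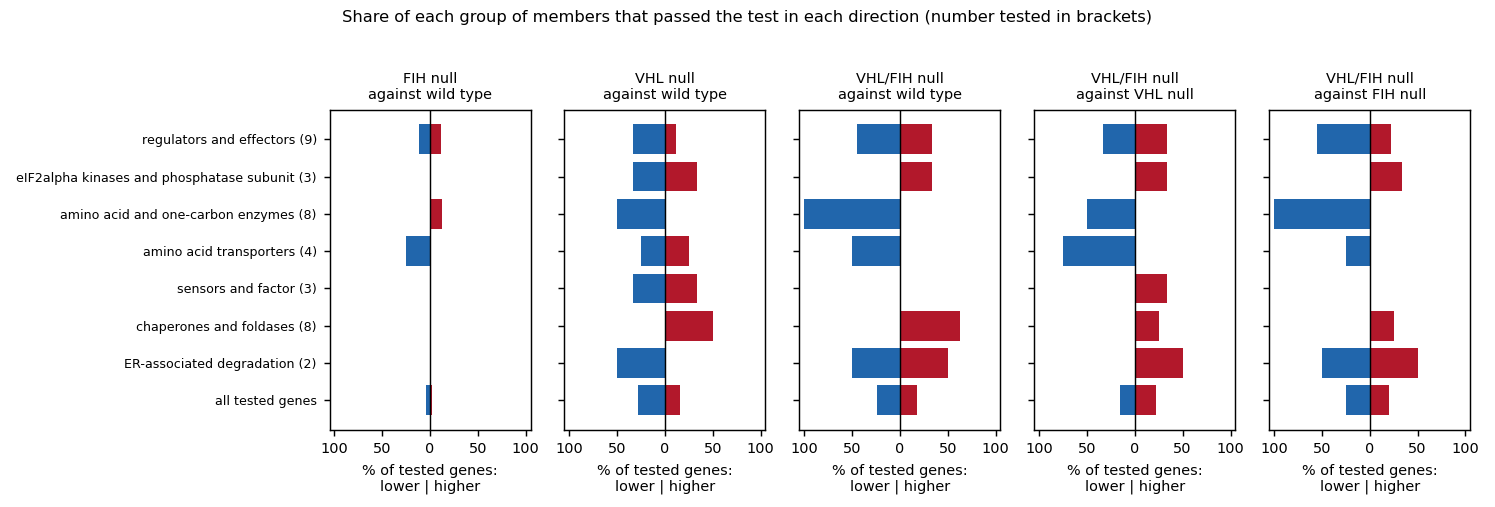
Bars give the percentage of tested genes called lower (blue, to the left) and higher (red, to the right) in each comparison between 2 genotypes, for each role, with the number tested in brackets, and for all tested genes in the bottom row. The enzyme bar reaches 100% lower in VHL/FIH null cells against wild type and against FIH null cells, where all tested genes have 23.6% and 25% lower.

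A wider list of 66 genes of the same pathways, of which 65 had a probe set and were tested, gave 14 higher and 21 lower in VHL/FIH null, 14 higher and 21 lower in VHL null and 4 higher and 1 lower in FIH null against wild type cells. These are 53.8%, 53.8% and 7.69% of the 65, where 41.4%, 43.8% and 6.55% of all genes were called. This list too was chosen with earlier results of these data known. Of its 12 aminoacyl-tRNA synthetases, which charge tRNAs with their amino acids, 0 were higher and 7 lower in VHL/FIH null cells against wild type, and 0 higher and 9 lower against FIH null cells, with medians of -0.29 and -0.37. Of all genes 23.6% and 25% were lower in these comparisons, with medians of -0.05 and -0.04. In VHL null against wild type cells 2 were higher and 4 lower (33.3%), where 28.4% of all genes were lower. Tars, the synthetase for threonine, was lower in VHL/FIH null than VHL null cells (-0.67, adjusted p = 7.16e-06), at 15660.0 ± 759.5 in VHL/FIH null cells, against 24990.2 ± 904 in VHL null cells. Nars, the synthetase for asparagine, had an interaction of -0.61 (adjusted p = 0.000193), and so had the eIF2alpha kinase gene Eif2ak1 (-0.61, adjusted p = 0.00169).

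Other genes of that list are given by the size of their difference. Ero1a, an ER thiol oxidase, averaged 37916 ± 3369.6 in VHL/FIH null and 27362 ± 766 in VHL null cells, and 7698 ± 26.7 in FIH null cells, against 7526 ± 168 in wild type. Its differences from wild type were 2.33 (adjusted p = 1.14e-09) and 1.86 (adjusted p = 9.10e-09) in VHL/FIH null and VHL null cells. Vegfa, the angiogenic growth factor, differed by 1.49 and Ddit4, an inhibitor of mTORC1 signalling, by 1.30 in VHL/FIH null against wild type cells. Mthfd1l, a mitochondrial one-carbon enzyme named after its values were seen, differed from wild type by 1.08 in VHL/FIH null (adjusted p = 2.38e-07) and 0.96 in VHL null cells (adjusted p = 1.1e-06). Ero1a, Vegfa and Ddit4 are known as hypoxia-inducible genes, as is Stc2. Stc2, a secreted glycoprotein, differed by 1.27 in VHL null against wild type and by 1.41 in VHL/FIH null against FIH null cells. Creb3l1, an ER-anchored transcription factor, was lower in VHL null cells than in wild type (-1.15, adjusted p = 2.76e-05). Ero1b, the other ER thiol oxidase, was higher in VHL/FIH null than VHL null cells by 0.67 (adjusted p = 0.00418). In FIH null against wild type cells the widest differences that passed were those of Cebpd (-1.04), a C/EBP factor, Slc6a9 (0.36), a glycine carrier, and Ddit4 (0.33), and Cebpd had an interaction of 0.89.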

How the data were processed

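RNA of 8 MEF samples was hybridized to Affymetrix arrays. The deposited values are a linear intensity (signal) for each probe set, made by the authors with MAS5 per the submitters' processing notes, version not given in the sources used here. The trimmed mean (2% off each end) was 2500.01 on each array, so values were taken as deposited, as log2(signal + 16). Of 45101 probe sets, 64 controls were left out, 34945 had 1 symbol in GEO's platform annotation, 932 several and 9160 none or no entry. Testing needed a signal over 291.1, which is the median of all arrays, on 2 or more arrays, and 1 tested probe set stood for a gene. The number of arrays limits precision.

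All 8 arrays were fitted by group with limma 3.58.1 (R 4.3.3; lmFit, eBayes with a trend, prior degrees of freedom 7.04, residual 4). Tests were two-sided and adjusted by Benjamini-Hochberg over 11564 genes in each of 6 comparisons, with a threshold of 0.05. The fit was tested on simulated data. Replicate numbers did not pair the arrays, since deviations of equal numbers correlated at 0.00869 to 0.0393 in the 6 pairs of groups. The members and all gene lists were chosen with earlier results of these data known. Values on every array are given for Atf4, Ddit3, Hspa5 and Xbp1 and, for each comparison and branch, for up to 4 members with the largest absolute log2 difference among those that passed. Up to 3 genes of the wider list are named per comparison. Members named beyond this rule (Asns, Aldh18a1, Shmt2, Slc3a2, Slc7a3, Atf3, Atf6, Cebpg, Eif2ak3, Eif2ak4, Hsp90b1, Dnajc3, Calr, Sdf2l1 and Pdia4) were chosen after their values were seen, as was Mthfd1l of the wider list.

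The alternatives tried were pseudocounts of 1 and 64, testing every gene, a cutoff at the 75th percentile (2454), quantile normalization, median centring, scaling to 9 hybridization control probe sets, no trend in the variance, weights for arrays, a fit limited to the groups compared, averaging the probe sets of a gene, dropping probe sets ending in _x_at, _s_at or _a_at, a fit of all probe sets, the replicate number as a block, each array left out, and a minimum change of 2-fold.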

Additional observations from a re-analysis of the deposited data

Results flagged for a closer look

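For 10 members the effect of FIH loss differed between cells without and with VHL by the interaction test. They are 27% of the 37, where 21.9% of all genes passed. The interaction on the log2 scale was -0.55 for Cebpb, -0.47 for Phgdh, -0.46 for Mthfd2, -0.41 for Psat1, -0.36 for Atf4, -0.30 for Psph and -0.29 for Slc7a1, where VHL/FIH null cells were lower than the single deletions add up to. It was 0.38 for Edem1, 0.36 for Dnajb9 and 0.34 for Xbp1, where they were higher. Of these, Cebpb kept its call in all 21 other settings, Mthfd2 and Psat1 lost it with scaling to the hybridization controls and Phgdh with no variance trend, and Slc7a1 lost it in 12 of 21 settings and Psph in 9. These calls are of the brightest probe set of each gene. The second tested ones of Cebpb (-0.30), Mthfd2 (-0.25) and Edem1 (0.28) did not pass. Other tested probe sets passed in the same direction for Psat1 (the 1 other), Phgdh (2 of 3), Slc7a1 (1 of 2) and Xbp1 (1 of 3). For Atf4 the second tested probe set did not share the direction in VHL/FIH null cells. With 2 arrays in a group no single array could be tested as standing apart.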

How the results depend on the processing

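The 6 comparisons held 97 calls of members, of which 36 were kept in all other settings, 58 lost the threshold in at least 1 and 16 changed sign in 1. Scaling to the hybridization controls turned Dnajc3 (-0.16), Ern1 (-0.055), Hsp90b1 (-0.17) and Hspa5 (-0.16) in VHL null against wild type cells, and Ddit3 (-0.16), Dnajc3 (-0.24), Edem1 (-0.12), Hsp90b1 (-0.19), Hspa5 (-0.20), Nupr1 (-0.24), Ppp1r15a (-0.010) and Trib3 (-0.021) in VHL/FIH null against wild type cells. The mean of probe sets turned Atf4 (0.080) and Shmt2 (0.38) in VHL/FIH null against wild type and Shmt2 (0.18) against FIH null cells. Leaving out probe sets ending in _x_at, _s_at or _a_at turned Xbp1 (0.37) in VHL null against wild type cells. For Xbp1 it left a dim probe set, at 587.5 and 524.5 in wild type arrays, where the one used read 15383 and 16626. The number of members called in FIH null against wild type cells was 4, and it was 11 with median centring, 14 with scaling to the hybridization controls, 2 with no variance trend, 0 at 2-fold and from 0 to 4 with an array left out. With an array left out the number ran from 13 to 20 in VHL null and from 16 to 24 in VHL/FIH null against wild type, from 9 to 18 in VHL/FIH null against VHL null, from 18 to 22 against FIH null and from 6 to 12 for the interaction, where a lone array was assumed to vary like the other groups. With no variance trend it was 10 in VHL/FIH null against VHL null cells and 4 for the interaction. At 2-fold it was 0 in VHL null against wild type, 1 in VHL/FIH null against wild type, 0 against VHL null, 1 against FIH null and 0 for the interaction. The replicate block, whose numbers did not pair the arrays, changed none of the 97 calls, and gave counts of 5, 19, 25, 18, 23 and 10 in the order in which the comparisons were first given. The interaction has no fit of only the compared groups, since it uses all 4. Of all genes called, the share higher was 43.0% in VHL/FIH null, 35.3% in VHL null and 29.9% in FIH null against wild type. It was 55.3%, 49.1% and 71.2% with median centring, and 6.35%, 5.39% and 1.34% with scaling to the hybridization controls. For the interaction it was 61.4%, 40.4% with median centring and 86.5% with scaling to the controls. The cause of these shifts was not tested.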
